A study of Mus musculus with 12 samples.

Results

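Protocadherins, the largest group of the cadherin family of adhesion molecules in the brain, were followed across 12 striatal RNA libraries from R6/2 and wild-type mice given vehicle or PLX3397. The members were all genes of the deposited table whose symbol starts with Pcdh, 66 of 15397 genes. Of these, 55 were clustered (12 Pcdha, 21 Pcdhb and 22 Pcdhg genes) and 11 were single genes (Pcdh followed by a number). R6/2 is a transgenic line in which only the start of human mutant huntingtin is expressed from the transgene, so it models a part of Huntington's disease. PLX3397 is an inhibitor of Csf1r, the receptor that microglia need to survive. All mice were on the C57BL/6 strain, and the 4 groups of 3 mice each were wild type on vehicle, wild type on chow with 275 ppm of PLX3397, R6/2 on vehicle and R6/2 on the same drug chow. Treatment ran from week 7 to week 11 of age, and striatum was dissected and frozen. The huntingtin repeat length and the sex of the mice are not given in the sources used here. Levels are log2 CPM, the base-2 logarithm of counts per megaread assigned to genes. Differences between groups are log2 differences ± SE with n = 3 mice a group, from limma, and calls needed an adjusted p (Benjamini-Hochberg, all 15397 genes) below 0.05.

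The clustered genes lie side by side in 3 tandem arrays. Each alpha or gamma gene has its own large first exon, which encodes the extracellular cadherin repeats and the membrane span, and this exon is spliced to constant exons that all genes of the cluster share. Beta genes have no constant exons. A neuron expresses a few of the variable promoters, chosen with the help of CTCF and cohesin, and the proteins bind like with like across membranes, which lets a neuron recognise its own branches. The C-type genes at the ends of the alpha and gamma clusters are used by most neurons rather than chosen at random. The single genes, most of them of the delta group, stand outside these arrays. They act in cell sorting, axon growth and synapse formation, and several mark particular striatal or cortical circuits. RefSeq on GRCm38 lists 70 protocadherin genes. Pcdh12, Pcdha4, Pcdha8 and Pcdhb1 were not in the table, and Pcdhgb8 is a transcribed pseudogene.

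Promoter sequences were read for single genes only, and those of the clustered genes were not analysed here, so the motifs say nothing of how the classes differ. RefSeq windows on GRCm38.p6 were at hand for 9 of the 11 single genes, all but Pcdh1 and Pcdh11x, and 1 start site was read for each gene although some have several. A CCAAT box (CCAAT, or ATTGG on the other strand) stood in the 250 bases before the start in 8 of the 9, all but Pcdh7, and in 33.8% of 32851 windows of all genes. This motif was chosen after the sequences had been looked at. CGCT or AGCG, the core letters of a conserved element of clustered protocadherin promoters, was in 9 of 9 windows and in 55.7% of all. Stretches of 65 bases are shown for 4 genes, those whose stretch lies wholly before the annotated span of the gene. They include Pcdh20, which fell with PLX3397 in wild type, and Pcdh10, the most abundant member per kilobase of transcript. Capitals mark the CCAAT box, and each stretch reads 5′ to 3′ along its gene.
Pcdh20: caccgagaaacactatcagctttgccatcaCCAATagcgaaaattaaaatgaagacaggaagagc
Pcdh10: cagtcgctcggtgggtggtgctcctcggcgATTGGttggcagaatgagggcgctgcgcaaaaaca
Pcdh17: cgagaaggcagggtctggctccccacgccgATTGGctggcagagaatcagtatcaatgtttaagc
Pcdh8: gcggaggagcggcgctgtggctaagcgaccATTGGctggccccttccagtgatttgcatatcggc

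The stretches are at chr14:88471547-88471611 on the minus strand for Pcdh20, chr3:45378318-45378382 on the plus strand for Pcdh10, chr14:84443475-84443539 on the plus strand for Pcdh17 and chr14:79771346-79771410 on the minus strand for Pcdh8. The box lay 185 bases before the start in Pcdh20, 50 in Pcdh10, 58 in Pcdh17 and 68 in Pcdh8. Pcdh8 holds the box but was called in no comparison, and Pcdh7 lacks it in its window and was called. A match of letters shows no binding, and none was measured here.

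Reads assigned to genes numbered 18902120 to 24293208 per library, and members had from 7 to 8910 reads per library. Csf1r was at 6.62 to 7.16 log2 CPM on vehicle and at -1.04 to 1.65 on PLX3397. Ppp1r1b, the DARPP-32 phosphatase inhibitor of striatal projection neurons, was at 9.07 to 11.4 in the wild-type libraries and 6.14 to 8.42 in those of R6/2. Over 12 genes of these neurons the median difference of R6/2 from wild type was -2.41 on vehicle and -2.54 on PLX3397. Of the 12, 4 and 10 were called lower, against 1.49% and 17.9% of all genes. The part of this list in the changes of protocadherins was not tested. Some libraries stood apart within their groups. The mean of 12 cortical neuron genes was 2.64 in wild-type PLX3397 library 1 and 2.31 and 2.14 in R6/2 PLX3397 libraries 1 and 2, against 3.90 to 6.14 elsewhere. The mean of 7 choroid plexus genes was 5.62 in wild-type PLX3397 library 1 and 6.62 in R6/2 vehicle library 1, against 2.20 to 3.96 elsewhere. Changes also varied with the GC content and the length of transcripts, as given for the members below. In bulk tissue, fewer cells of a type and less RNA per cell cannot be told apart.

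Single genes were higher than clustered genes per length. The median over members was 6.69 CPM per kilobase of transcript for single genes and 1.74 for clustered genes. Pcdh10, which guides the axons of striatal neurons, led the single genes at 26.1 CPM per kilobase, followed by Pcdh9 at 15.9. Of the 5 C-type genes, 3 led their clusters: Pcdhgc5 was at 15.0 CPM per kilobase, Pcdhgc3 at 13.6 and Pcdhac2 at 4.79. Pcdhgc4 was at 3.38, below Pcdhga4 and Pcdhga7, and Pcdhac1 at 0.394 was the 11th of 12 alpha genes. Pcdhb9 and Pcdhb20 led the beta cluster at 5.74 and 5.12. Class medians were 0.644 for alpha, 1.66 for beta and 2.43 for gamma. These orders depend on the length used, since the sources used here do not state how reads in exons shared by several genes were counted. Per kilobase of unshared exon, the medians were 1.77 for alpha, 1.66 for beta, 4.53 for gamma and 7.39 for single genes. On that scale Pcdhgc3 was highest of all members at 35.0, followed by Pcdhgc5 at 18.9, Pcdh9 at 15.3 and Pcdh10 at 13.6, and Pcdhb12 led the beta cluster at 10.3. Members were also more variable than most genes. The median SD within groups, on the log2 CPM scale, was 0.59 for clustered genes, 0.52 for single genes and 0.29 for all genes.

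In wild-type mice single protocadherins were lower on the drug, and no clustered gene was called. Pcdh11x, Pcdh15, Pcdh20, Pcdh7 and Pcdh9 fell, 5 of the 11 single genes, while 0 of the 55 clustered genes were called by limma (5 at an unadjusted p under 0.05, and 0 by limma-voom). Of all genes, 14.2% were called in this comparison, and 8.3% were called lower. No member was called higher, against 5.93% of all genes. The median change was -1.16 over single genes, -0.25 over clustered genes and 0.00 over all genes. The clustered median was thus higher by 0.91, a gap that was 0.31 without wild-type PLX3397 library 1 and 1.35 without library 2, and that was 0.55 once the GC and length trend had been removed. All 11 single genes had a value below 0, as did 42 of the 55 clustered genes and 7644 of the 15397 genes. In 9 of the single genes the groups did not overlap, which held in the lower direction for 17.3% of all genes.

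Pcdh11x, an X-linked single protocadherin (NCBI gene 245578; chrX:120290238-120910622, GRCm38), was at 4.41, 3.65 and 3.09 log2 CPM in wild type on vehicle, 1.24, 0.73 and 1.36 in wild type on PLX3397, 0.75, 1.88 and 1.97 in R6/2 on vehicle and 4.18, 5.25 and 3.09 in R6/2 on PLX3397. The vehicle and drug libraries lay apart in both genotypes, in opposite directions. In wild type it fell by 2.61 ± 0.53, or 6.1-fold (limma adjusted p = 0.0152). Pcdh20 (gene 219257; chr14:88464743-88471396) was at 4.55, 4.16 and 4.76 in wild type on vehicle and 2.27, 3.72 and 3.13 in wild type on PLX3397, against 5.80, 4.99 and 5.07 in R6/2 on vehicle and 5.31, 5.51 and 5.33 in R6/2 on PLX3397. The wild-type drug libraries were the lowest of the 12, and the fall was 1.45 ± 0.33 (adjusted p = 0.0211).

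Pcdh15, a cadherin of the hair cell tip link that also marks oligodendrocyte precursors in brain (gene 11994; chr10:73096277-74649831), was at 5.05, 4.21 and 4.46 in wild type on vehicle, 1.14, 3.16 and 3.14 in wild type on PLX3397, 3.57, 3.68 and 3.93 in R6/2 on vehicle and 5.17, 5.53 and 4.06 in R6/2 on PLX3397. It fell in wild type by 2.09 ± 0.52 (limma adjusted p = 0.0275), with the lowest value in library 1. The mean of 6 oligodendrocyte precursor genes was 4.56 to 4.73 log2 CPM in wild type on PLX3397 and 5.22 to 5.89 in the other 3 groups, all 6 of them above 1 CPM in every library. The part of this list in the fall of Pcdh15 was not tested.

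Pcdh7 (gene 54216; chr5:57716145-58133236) fell from 7.08, 6.91 and 6.43 to 5.11, 5.10 and 6.12, by 1.37 ± 0.37 (limma adjusted p = 0.0359). Pcdh9 (gene 211712; chr14:93013700-93892834) fell from 7.08, 7.14 and 6.66 to 4.71, 5.60 and 6.52, by 1.35 ± 0.37 (adjusted p = 0.0368). Library 3 on the drug came close to the vehicle libraries for both genes. Pcdh17, which shapes presynaptic terminals in circuits between cortex and basal ganglia, and Pcdh19, the gene of an X-linked epilepsy, did not pass, with changes of -1.16 ± 0.39 and -1.07 ± 0.35 (adjusted p = 0.0653 and 0.0631). Pcdh10 had -0.75 ± 0.26 (adjusted p = 0.0714). None of the 5 calls was left without wild-type vehicle library 1 or library 2. In these fits the calls over all genes fell too, from 2191 to 228 and 242. Of the 5, 3 were left without wild-type PLX3397 library 2 or R6/2 vehicle library 3, where 935 and 1504 of all genes were called. Without R6/2 vehicle library 1 and wild-type PLX3397 library 1 together, 12 members were called, in a fit that called 3560 of all 15397 genes. With the GC and length trend removed, Pcdh11x alone remained called (-1.43, adjusted p = 0.0335), against 4.34% of all genes called.

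**Figure D1:**
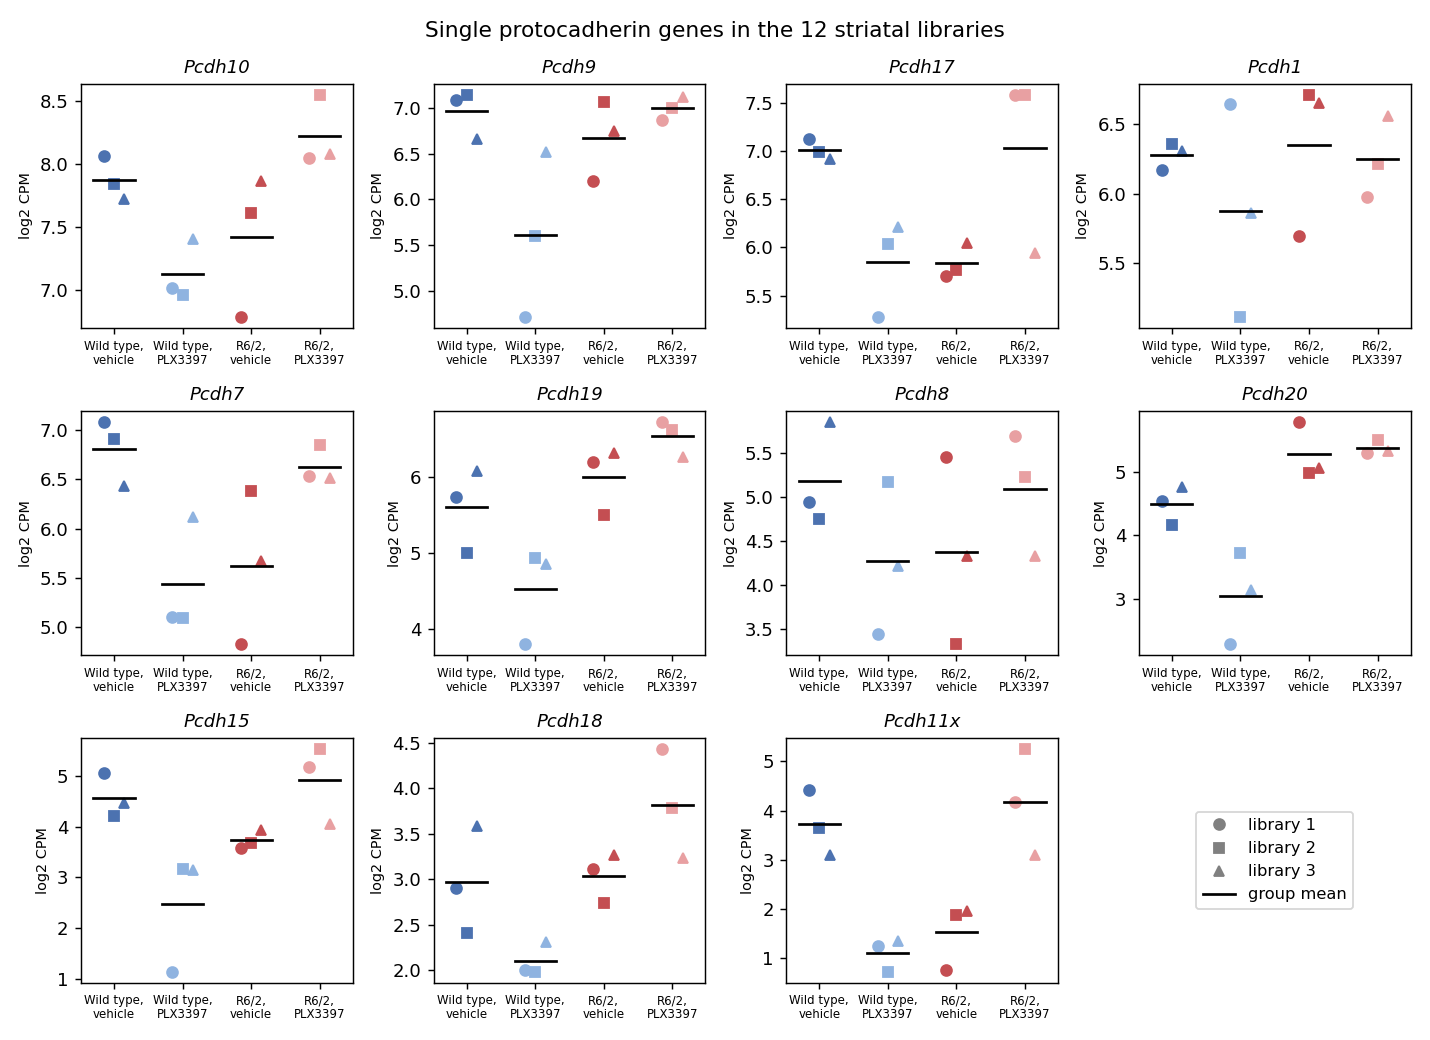
Levels of the 11 single protocadherin genes in log2 CPM (vertical axes, a separate scale for each gene) in the 4 groups, with 1 symbol per library and a bar at the group mean of 3 libraries. The wild-type PLX3397 libraries are the lowest of the 12 for Pcdh20, while Pcdh11x is low in wild type on PLX3397 and in R6/2 on vehicle and high in the other groups.

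In R6/2 mice the drug's effect on single genes had the other sign and passed the test for 1 gene. Pcdh11x rose by 2.64 ± 0.53, or 6.23-fold (limma adjusted p = 0.0408), where 1.1% of all genes were called and 0.0585% were called higher. No clustered gene was called (2 of 55 at an unadjusted p under 0.05, and 0 by limma-voom). The median change was 0.78 over single genes, 0.29 over clustered genes and -0.01 over all genes. Values lay above 0 for 10 of 11 single genes and 48 of 55 clustered genes, against 7465 of the 15397 genes. The clustered median minus the single one was -0.48, and it was -0.05 without R6/2 PLX3397 library 1, -0.88 without library 3, -0.19 without R6/2 vehicle library 2 and 0.14 without R6/2 PLX3397 libraries 1 and 2. The groups did not overlap in the higher direction for 4 single and 4 clustered genes, against 12.2% of all genes. Pcdh17 was at 5.71, 5.77 and 6.04 on vehicle and at 7.58, 7.58 and 5.94 on PLX3397. Library 3 on the drug lay among the vehicle libraries, and the difference of 1.20 ± 0.39 was not called (adjusted p = 0.269). The 2 high libraries are those low in cortical genes. Pcdh15, Pcdh10 and Pcdh7 did not overlap between groups but were not called either (1.19, 0.81 and 1.00). The call of Pcdh11x held without wild-type vehicle library 1 (adjusted p = 0.0471) or R6/2 PLX3397 library 3 (0.00898), and also once the GC and length trend had been taken out (1.72, adjusted p = 0.0225). It was lost without any 1 of the other 10 libraries, with adjusted p of 0.0506 to 0.167, and with limma-voom (adjusted p = 0.132). It was also lost with the filter on low levels (0.0596), the cortical genes as a covariate (2.12, adjusted p = 0.551), a replicate block (0.0879), a separate fit of the R6/2 libraries (0.199), without R6/2 PLX3397 libraries 1 and 2 (1.55, adjusted p = 1.00), and without R6/2 vehicle library 1 and wild-type PLX3397 library 1 (0.178). Without R6/2 PLX3397 library 3, 2 members were called, the other being Pcdh17.

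The interaction term, which sets the drug response of R6/2 against that of wild type, tested this difference directly. It was called for 9 of 11 single genes and 1 of 55 clustered genes, all positive, against 17.0% of all genes called, 9.29% positive and 7.71% negative. By limma-voom, 8 members were called. Some marker lists of other cells had positive interactions too. The median was 2.62 over 12 genes of thalamus, septum and pallidum (2 called), 1.23 over 8 of striatal interneurons (3 called), 0.76 over 7 of astrocytes (3 called) and 1.07 over 6 of oligodendrocyte precursors (4 called), all these calls positive. After removal of the GC and length trend, these lists had 1, 1, 0 and 2 calls in the order given. The other marker lists had negative medians, from -2.17 over 12 cortical genes to -0.27 over 12 of striatal projection neurons. Among them, endothelium with mural cells and microglia had 1 negative call each. Summed, the thalamus, septum and pallidum genes held 246 to 504 CPM in wild type on vehicle, 74.8 to 427 in wild type on PLX3397, 97.8 to 302 in R6/2 on vehicle and 136 to 487 in R6/2 on PLX3397, so the groups overlapped. The astrocyte genes held 4027 to 5428, 2399 to 3439, 2094 to 3386 and 2348 to 3076 CPM, the interneuron genes 1690 to 2006, 1258 to 1542, 494 to 722 and 846 to 1550 CPM, and the precursor genes 371 to 428, 211 to 243, 298 to 386 and 295 to 352 CPM. The part of these lists in the interactions of protocadherins was not tested. Pcdh11x had 5.25 ± 0.75 (limma adjusted p = 0.0139), Pcdh15 had 3.28 ± 0.74 (adjusted p = 0.0193) and Pcdh7 had 2.38 ± 0.53 (adjusted p = 0.0190). The others were Pcdh17, Pcdh10, Pcdh18, Pcdh20, Pcdh19, Pcdh9 and Pcdhgc4, with values of 1.55 to 2.36. Medians were 1.65 over single genes, 0.53 over clustered genes and -0.05 over all genes. Values lay above 0 for all 11 single genes and 47 of 55 clustered genes, against 7336 of the 15397 genes. Pcdh8, known as the activity-induced arcadlin, and Pcdh1 were not called. Pcdh8 spread widely within groups, from 3.44 to 5.16 in wild type on PLX3397 and from 3.33 to 5.45 in R6/2 on vehicle. With the GC and length trend removed, 2.47% of all genes were called. The member calls then went from 10 to 1, Pcdh11x (3.16, limma adjusted p = 0.0352). They went to 0 without R6/2 PLX3397 libraries 1 and 2, in a fit that called 0 of all genes, and to 4 with the cortical genes as a covariate. Without 1 library, the count fell by more than 1.5 times for each vehicle library of both genotypes and for R6/2 PLX3397 libraries 1 and 2. It was 1, 3 and 5 without wild-type vehicle libraries 1, 2 and 3, and 6, 5 and 6 without those of R6/2. It was 3 and 1 without the 2 drug libraries. Calls over all genes fell too, from 2617 to 537, 625 and 2503, to 1158, 1668 and 1764, and to 862 and 683 in the same order.

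**Figure D2:**
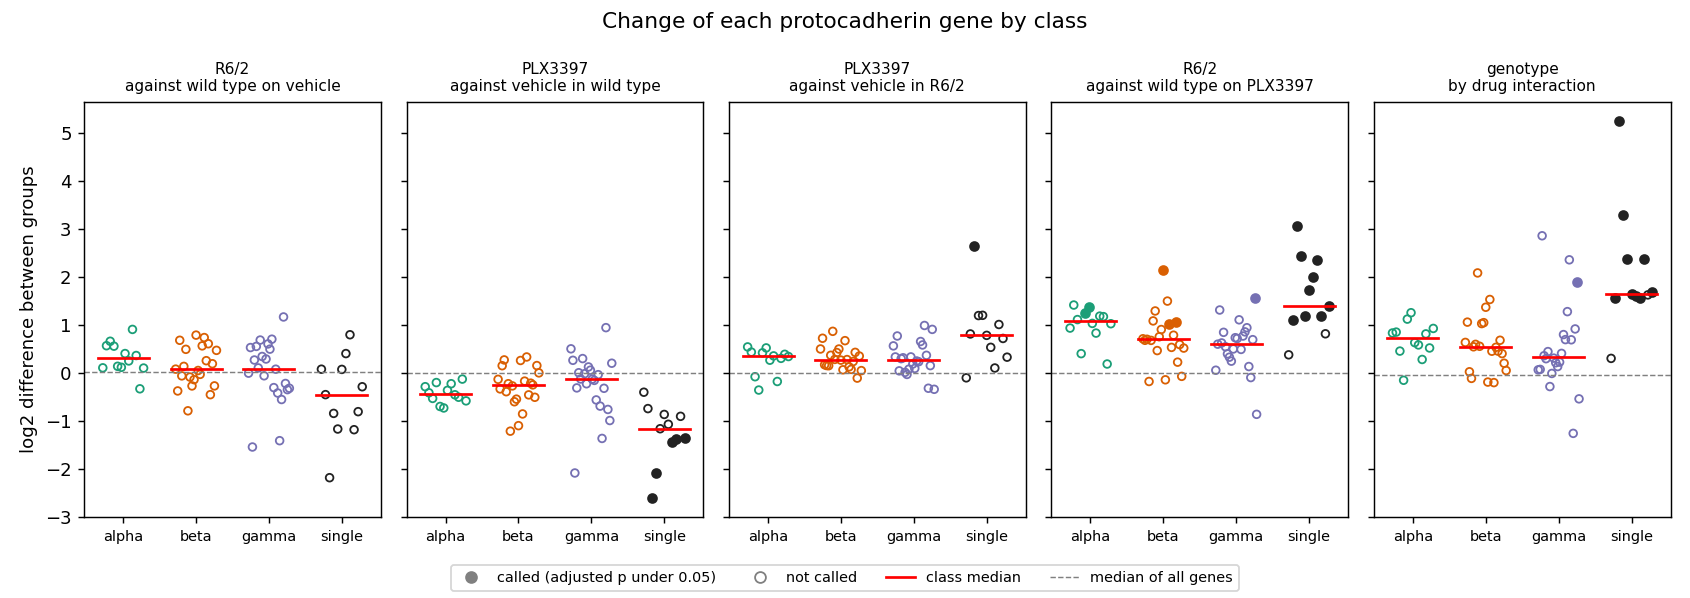
Log2 differences between groups (vertical axis) for each of the 66 protocadherin genes, by class, in the 4 comparisons and the interaction; filled points were called, red bars are class medians and the dashed line is the median of all genes. Single genes have a median of -1.16 for PLX3397 in wild type and 1.65 for the interaction, and the 3 cluster classes lie closer to 0.

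On vehicle, no protocadherin was called between R6/2 and wild type. The test passed 0 of 66 members by limma and 0 by limma-voom, with 9 at an unadjusted p under 0.05 (5 clustered, 4 single), while 2.11% of all genes were called. Pcdh11x had a change of -2.18 ± 0.53 (limma adjusted p = 0.0605), Pcdh7 of -1.19 ± 0.37 (adjusted p = 0.107) and Pcdh17 of -1.17 ± 0.39 (adjusted p = 0.118). In each of these 3 the groups did not overlap. Pcdh20 had 0.79 ± 0.33 (adjusted p = 0.194), also without overlap. Groups without overlap numbered 6 higher and 1 lower among clustered genes and 1 higher and 4 lower among single genes, against 16.4% and 17.1% of all genes. Medians were -0.46 over single genes, 0.13 over clustered genes and 0.01 over all genes. Pcdh11x and Pcdhb22 were called with the GC and length trend removed (-1.31 and 0.70, adjusted p = 0.0479 and 0.0473), against 4.16% of all genes. Leaving out R6/2 PLX3397 library 2 gave 1 call, Pcdh11x, and leaving out library 3 gave 2, Pcdh11x and Pcdh17, although neither library enters this comparison itself.

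On PLX3397, most single protocadherins and a few clustered ones were higher in R6/2 than in wild type. The calls covered 9 of 11 single genes and 6 of 55 clustered genes, all of them higher, where 35.0% of all genes were called and 17.1% were called higher. The clustered share is thus below that of all genes. Pcdh20 rose by 2.34 ± 0.33, or 5.06-fold (limma adjusted p = 0.000977), Pcdh11x by 3.06 ± 0.53, or 8.36-fold (adjusted p = 0.00233), and Pcdh19 by 2.00 ± 0.35 (adjusted p = 0.00246). Pcdh19 (gene 279653; chrX:133582860-133689044) was at 3.80, 4.94 and 4.86 in wild type and at 6.72, 6.62 and 6.26 in R6/2, with no overlap. Pcdh18 (gene 73173; chr3:49743291-49757383) was at 2.00, 1.99 and 2.32 against 4.43, 3.78 and 3.24, a rise of 1.72 ± 0.34 (adjusted p = 0.00418). Pcdh15, Pcdh10, Pcdh9, Pcdh7 and Pcdh17 rose by 1.10 to 2.44. This comparison shares its wild-type drug libraries with that of the drug in wild type, so the same 3 libraries enter both.

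Among clustered genes, Pcdhb2 rose by 2.15 ± 0.40, or 4.43-fold (limma adjusted p = 0.00326). It was at 0.29, -0.81 and -0.66 log2 CPM in wild type on PLX3397 and at 1.47, 1.64 and 2.16 in R6/2 on PLX3397, with 0.66, 1.05 and 0.41, and 0.75, 1.90 and 1.83, in the vehicle groups. The wild-type drug libraries were the 3 lowest of the 12, at a depth of 11 to 102 reads per library. Pcdhgc4, the gamma isoform on which the survival of many neurons depends, was at 3.47, 3.03 and 2.82 in wild type on PLX3397 and at 5.47, 4.57 and 3.92 in R6/2, a rise of 1.55 ± 0.36 (adjusted p = 0.00912). In the vehicle groups it was at 3.89, 3.74 and 4.67, and at 3.91, 3.61 and 3.73. Pcdhb22 rose by 1.01 ± 0.22 (adjusted p = 0.00673), Pcdha3 by 1.36 ± 0.33, Pcdha2 by 1.25 ± 0.33 and Pcdhb5 by 1.06 ± 0.30. The groups did not overlap for 18 clustered and 8 single genes in the higher direction, against 22.6% of all genes, and for 0 members in the lower direction, against 24.2%. Medians were 1.39 over single genes, 0.71 over clustered genes and 0.00 over all genes. The lead of the single genes was gone without wild-type PLX3397 library 1, where the clustered median was higher by 0.0050. The clustered count moved with single libraries: it was 20 without wild-type PLX3397 library 1, 13 without R6/2 vehicle library 1 and 10 without wild-type PLX3397 library 3. Of all 15397 genes, 5581, 5630 and 4779 were called in these fits, against 5389 with all libraries. The clustered count was 30 without both wild-type PLX3397 library 1 and R6/2 vehicle library 1, where 6046 genes were called. With the GC and length trend removed it was 7 clustered and 4 single genes, against 24.8% of all genes, and it was 0 of both without R6/2 PLX3397 libraries 1 and 2, where 237 genes of the whole table were called.

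Clustered genes, which lie on chromosome 18, deviated together in several libraries. In wild-type PLX3397 library 2, 0 of 55 clustered genes were above their own mean over the 12 libraries, with a median deviation of -1.14 in log2. In R6/2 PLX3397 library 3, 54 of 55 were above it. In wild-type PLX3397 library 1 the clusters parted: the median deviation was 0.76 for gamma genes, 0.08 for beta and -0.15 for alpha. Summed over the gamma cluster, the 3 wild-type drug libraries held 639, 150 and 316 CPM, so that the spread within this group exceeded the range of the other 9 libraries, 226 to 455. The single genes did not share this split, since their median deviation was -1.28, -0.83 and -0.51 in the same libraries. Wild-type PLX3397 library 1 is the one low in cortical and high in choroid plexus genes, and library 2 was within the range of the others for both lists. The part of these lists in the gamma deviation was not tested. Without library 1, 3 clustered genes (Pcdhb2, Pcdhgb5 and Pcdhgc3) were called lower with the drug in wild type rather than 0. That fit called 2716 of all 15397 genes, against 2191 with all libraries.

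**Figure D3:**
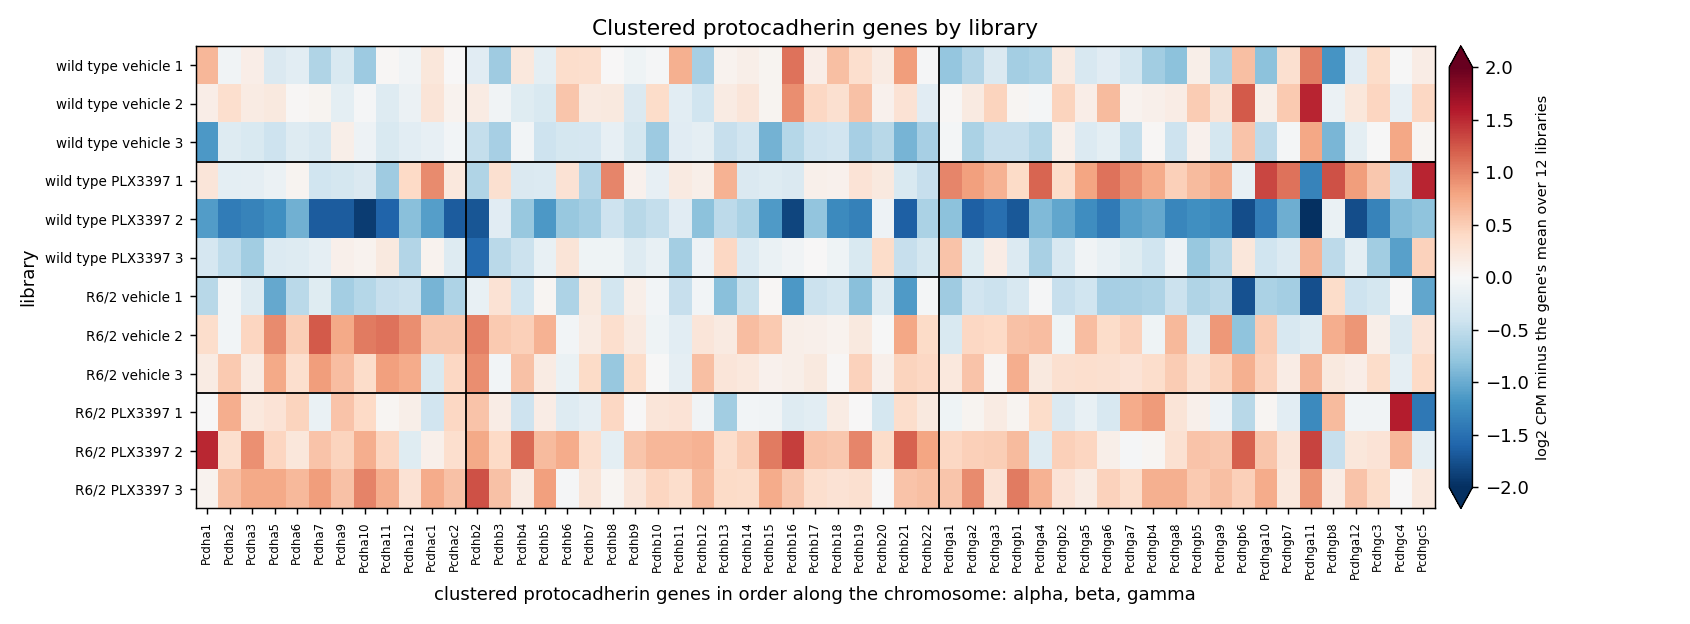
Deviation of each of the 55 clustered genes (columns, in order along the chromosome) from its mean over the 12 libraries (rows), as a log2 difference on a colour scale that ends at -2 and 2. Wild-type PLX3397 library 2 is low throughout and library 1 is high in the gamma genes.

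The share of a gene in its cluster was compared next. These shares were looked at after the levels had been seen, and they are free of library depth. Pcdhgc5, a C-type gamma protocadherin that binds GABA-A receptors, took 25.0%, 22.9% and 23.8% of gamma reads in wild type on vehicle and 34.3%, 28.9% and 33.2% in wild type on PLX3397. In R6/2 it took 16.3%, 22.4% and 23.2% on vehicle and 8.73%, 16.2% and 19.2% on PLX3397. The wild-type drug libraries were thus the 3 highest of the 12, and the lowest value was in R6/2 PLX3397 library 1. That library is low in cortical genes, as is wild-type PLX3397 library 1, which had the highest share. The part of the cortical genes in these shares was not tested. Wilson intervals were 27.4% to 30.5% for the lowest of the 3 wild-type drug libraries and 8.13% to 9.37% for R6/2 PLX3397 library 1. They do not cover variation between mice. Group means ± SD were 23.9 ± 1.0%, 32.1 ± 2.8%, 20.6 ± 3.8% and 14.7 ± 5.4% in the order given. An exact permutation test of 3 against 3 mice cannot give a two-sided p under 0.1, so none was used. The level of Pcdhgc5 itself was not called (0.20 ± 0.58 for the drug in wild type, limma adjusted p = 0.838, with 0.338 to 0.920 under the alternatives). In wild type it was at 6.40, 6.66 and 6.28 log2 CPM on vehicle and 7.78, 5.45 and 6.71 on PLX3397. The sign of this change thus depends on drug library 1.

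The share of Pcdhgc3, Pcdhgc4 and Pcdhgc5 together overlapped between the wild-type groups. It was 44.3% to 52.3% on vehicle and 47.1% to 50.04% on the drug, while in R6/2 it was 41.2% to 44.3% on vehicle and 39.6% to 40.0% on PLX3397. Pcdhgc3, the most widely used gamma isoform, had a share of 19.9 ± 2.7% in wild type on vehicle and 13.7 ± 2.0% on PLX3397 (SD, n = 3). In the beta cluster, Pcdhb20 took 12.03%, 16.7% and 15.1% of reads in wild type on PLX3397 and 8.41% to 10.9% in the other 9 libraries, again without overlap. Reads in the exons shared by gamma genes could be counted for none or several of them, which changes these shares. Beta genes have no constant exons, but some exon bases of Pcdhb12, Pcdhb21 and Pcdhb22 also lie under exons annotated to another gene. For Pcdhb12, 1107 of 3034 exon bases are unshared, and for Pcdhb20 all 3559 are. Beta genes are also close paralogs, so reads may be split between them.

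**Figure D4:**
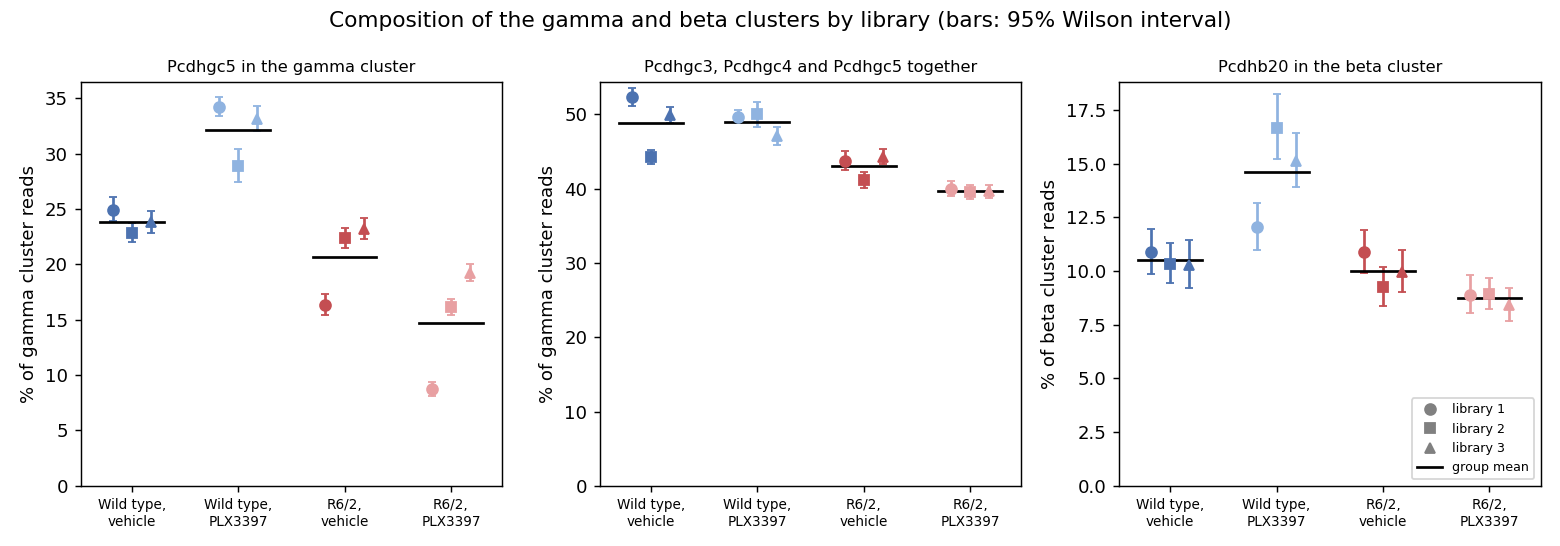
Share of gamma cluster reads from Pcdhgc5 (left) and from the 3 C-type genes (middle), and share of beta cluster reads from Pcdhb20 (right), in percent per library, with 95% Wilson intervals for counting error only and a bar at the mean of 3 libraries. For Pcdhgc5 and Pcdhb20 the wild-type PLX3397 libraries lie above all others, and for the C-type sum they do not.

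The classes differ in GC content and transcript length, and changes across the transcriptome varied with both. Median transcript length was 8234 bases for single genes, 4723 for clustered genes and 3473 for all genes. Transcript GC had a median of 45.5% for single genes, 45.6% for beta, 47.3% for alpha, 53.0% for gamma and 49.9% for all genes. Over 14305 genes (not replicates of one another) the drug's change in wild type had a Spearman's rho of 0.517 with GC, and its change in R6/2 one of -0.472. Over the 11 single genes rho was 0.618 and -0.291, and over the 55 clustered genes 0.130 and -0.101. With length in place of GC, rho was -0.483 and 0.357 over the 14305 genes. It was -0.382 and 0.573 over the single genes and -0.269 and 0.075 over the clustered genes. Pcdh11x, with the lowest GC content of the 66 members (36.3%), had the lowest value of all members in wild type and the highest in R6/2. Removal of the GC and length trend brought the median of the single genes from -1.16 to -0.71 in wild type, from 0.78 to 0.62 in R6/2 and from 1.65 to 1.19 for the interaction. That of the clustered genes went from -0.25 to -0.16, from 0.29 to 0.25 and from 0.53 to 0.43.

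**Figure D5:**
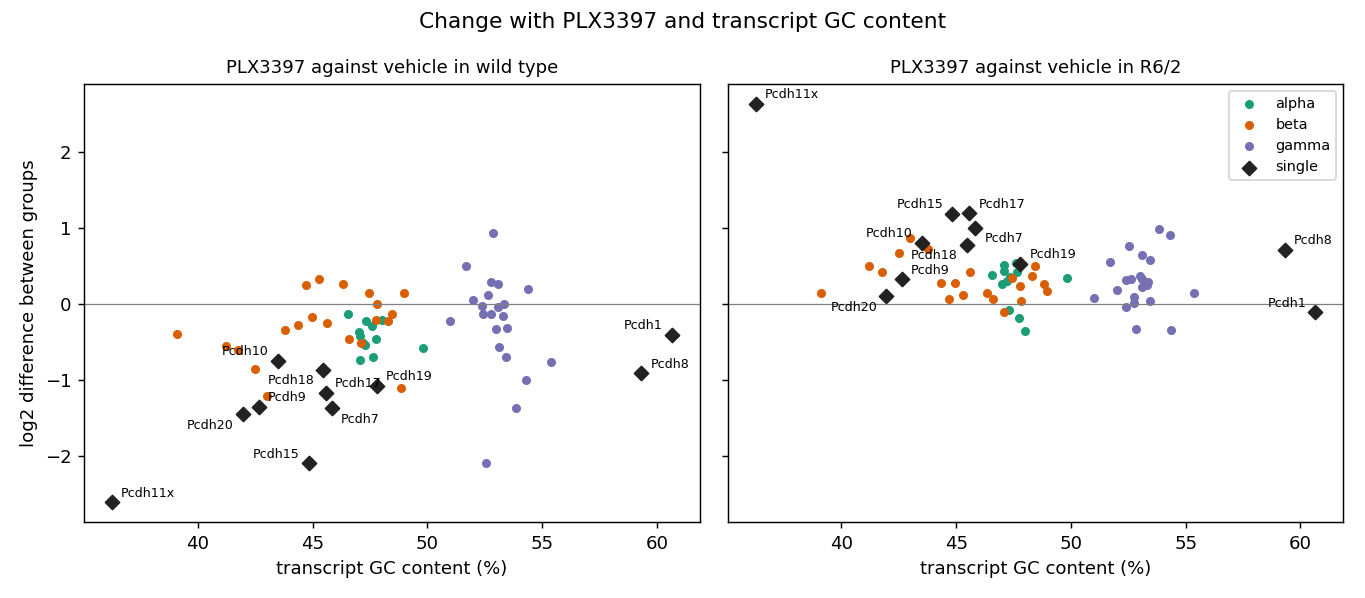
Log2 difference between PLX3397 and vehicle (vertical axis) against the GC content of the transcript in percent (horizontal axis) for the 66 protocadherin genes, in wild type (left) and R6/2 (right), with single genes as labelled diamonds. Pcdh11x lies at the low GC end, with -2.61 on the left and 2.64 on the right, while Pcdh8 and Pcdh1 at the high end lie between -0.91 and 0.71.

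Of the genes around the protocadherins, those that shape promoter choice in the clusters were examined first. With the drug in wild type, 1 of 19 such genes was called higher and 4 lower, beside 14.2% of all genes in either direction. Pds5a and Wapl, regulators of cohesin, fell by 1.32 ± 0.29 and 1.38 ± 0.34 (limma adjusted p = 0.0193 and 0.0259). Trim28, a corepressor that works with the histone methyltransferase Setdb1, rose by 0.60 ± 0.14 (adjusted p = 0.0210). Between genotypes on the drug, 7 were higher and 1 lower (Pds5a 1.49, Wapl 1.57, Stag1 1.17), beside 35.0% of all genes. The interaction called 5 positive and 1 negative, beside 17.0%, and the other 2 comparisons called 0 (2 and 0 at an unadjusted p under 0.05). With the GC and length trend removed, the 5 calls for the drug in wild type went to 0, the 6 of the interaction to 0, and those between genotypes on the drug to 2 higher and 1 lower.

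Of 31 other cadherins measured from a list of 34, 3 were lower with the drug in wild type and 0 higher, beside 8.3% and 5.93% of all genes. In R6/2 against wild type on the drug 8 were higher and 2 lower, 10 of 31 where 35.0% of all genes were called. The interaction was called for 5, all positive, beside 17.0% of all genes. Fat4, a giant cadherin of planar polarity, fell in wild type by 1.23 ± 0.26 and Cdh7, a classical type II cadherin, by 1.21 ± 0.30 (limma adjusted p = 0.0176 and 0.0271). Cdh7 was at 4.27, 3.95 and 3.65 in wild type on vehicle, 2.63, 2.79 and 2.82 on the drug, 2.70, 3.54 and 3.22 in R6/2 on vehicle and 4.29, 5.05 and 3.89 on the drug. The drug libraries were below the vehicle ones in wild type and above them in R6/2. Its interaction of 2.47 ± 0.43 (adjusted p = 0.0139) was also called with the GC and length trend removed (1.71, adjusted p = 0.0376), the 1 interaction call of the list left. On that scale the falls in wild type were not called for Fat4 (-0.64, adjusted p = 0.134) or Cdh7 (-0.74, adjusted p = 0.105), and the 3 calls of the list in that comparison went to 0. Dsc3, a desmosomal cadherin, was the 1 gene of the list called on vehicle, where R6/2 was lower by a fitted 2.77 ± 0.62 (adjusted p = 0.0480, and 0.0546 with the trend removed), at levels under 1 CPM in all 3 R6/2 libraries and under 2 CPM elsewhere.

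Partners of the protocadherin tails came last. Among 17 of them, which include the WAVE complex of actin assembly and the kinases Fyn and Ptk2b, 3 were lower with the drug in wild type, 3 higher and 3 lower between genotypes on the drug, and 1 had a negative interaction. The shares of all genes called were 8.3% lower in wild type, 35.0% on the drug and 17.0% for the interaction, so that 6 of 17 on the drug is near the background. With the GC and length trend removed, the 3 calls in wild type and the interaction call went to 0. Between genotypes on the drug, 2 partners were then called higher and 5 lower, where 24.8% of all genes were called. Brk1, the small WAVE subunit, fell by 1.17 ± 0.18 and Marcks, a kinase C substrate at the membrane, rose by 0.75 ± 0.14 in R6/2 against wild type on the drug (limma adjusted p = 0.00140 and 0.00359). Of 8 catenins, the link of classical cadherins to actin, Jup alone was called. It was higher with the drug in wild type by 0.59 ± 0.15 (limma adjusted p = 0.0291, and 0.22 with adjusted p = 0.379 once the trend was removed). Between genotypes on the drug its change was -1.02 ± 0.15 (adjusted p = 0.00112, and -0.56 with adjusted p = 0.0145 on that scale). The interaction was -0.84 ± 0.21 (adjusted p = 0.0271, and -0.23 with adjusted p = 0.521). Once the trend was removed, 1 catenin was called higher and 2 lower between genotypes on the drug. Median changes of both lists lay between -0.17 and 0.05 in all 5 comparisons.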

How the data were processed

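Total RNA of 12 striata was sequenced from TruSeq libraries, and the submitters' processing notes name STAR, featureCounts, edgeR, limma and mm10, without versions or settings, so how reads in shared exons, in paralogs or on either strand were counted is not given in the sources used here. The deposited values are named RPKM, but the values, with a shared lowest value of -3.46 and antilogs that sum to 920461 to 1070703 per library, are log2 CPM as deposited by the authors, with a prior of 2 reads on average. Whole reads were recovered from 100% of them within 0.1 read. The fit was a model of 4 group means in limma 3.58.1 (R 4.3.3), on all 12 libraries, moderated with an intensity trend and tested two-sided. Lengths and GC content (GENCODE M21) were known for 14305 genes. The GC and length trend was removed per library with splines of 5 degrees of freedom. Classes were described by counts and medians without a test, because members share a locus and are not replicates.

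The members and all lists were chosen with earlier results of these data known. Named genes are members called in any comparison (at most 12 clustered and 12 single), the 2 highest per length of each class, the C-type genes, 5 single genes chosen by name, and up to 3 of each related list with the smallest p per comparison. The 23 alternatives (22 for the interaction) covered scaling, priors, a filter, limma-voom on the recovered reads, covariates and left-out libraries, where the spread was pooled over the groups. The fit was tested on simulated data with noise drawn independently for each gene, without the shared deviations of whole libraries seen here. It cannot show how often such deviations give false calls. Promoter sequences are from RefSeq. Intervals cover counting error only, and reads are not independent molecules. Tables were made with pandas 2.3.3 and scipy 1.17.1 under Python 3.11.15, and plots with matplotlib 3.10.9.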

Additional observations from a re-analysis of the deposited data

Results flagged for a closer look

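For 10 of the 66 members the drug's change differed between R6/2 and wild type by the interaction test (limma, Benjamini-Hochberg adjusted p under 0.05). The share over all genes was 17.0%, so the members are near the background. With the GC and length trend removed, 1 member was left, beside 2.47% of all genes. The difference was 5.25 for Pcdh11x, 3.28 for Pcdh15 and 2.38 for Pcdh7 on the log2 scale. It was 2.36 for Pcdh17, 1.90 for Pcdhgc4 and 1.68 for Pcdh9. Pcdh18 had 1.65, Pcdh19 1.60, Pcdh10 1.55 and Pcdh20 1.55. Among them, Pcdh11x was called in both genotypes, lower with the drug in wild type and higher in R6/2.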

How the results depend on the processing

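Of the values of the 23 named members under the alternatives, 2405 kept their side of the threshold, 184 were no longer called and 33 became called. The 184 can come only from values called in the main fit. The 2405 also hold values never called, so they do not give the share of calls kept. Among called values 0 changed direction. Values that were not called could change sign and still count as kept. Another scaling (median of ratios) and priors of 0.5 and 5 reads changed no count of called members. With the GC and length trend removed, called members were 2 for R6/2 against wild type on vehicle, 1 for the drug in wild type and 1 for the interaction. The shares of all genes called on that scale were 4.16%, 4.34% and 2.47%. In separate fits of 6 libraries called members were 2 on vehicle, 1 for the drug in wild type and 0 for the drug in R6/2. These fits called 429, 351 and 98 of all genes. A filter at 0 log2 CPM, limma-voom and the cortical covariate each gave 0 for the drug in R6/2, and the covariate gave 4 for the interaction. Without R6/2 PLX3397 libraries 1 and 2 the counts were 2 on vehicle, 0 for the drug in R6/2, 0 between genotypes on the drug and 0 for the interaction; without R6/2 vehicle library 1 and wild-type PLX3397 library 1 they were 12 for the drug in wild type, 0 for the drug in R6/2 and 39 between genotypes on the drug. Leaving out 1 library gave 0 to 2 on vehicle, 0 to 6 for the drug in wild type, 0 to 2 for the drug in R6/2, 12 to 27 between genotypes on the drug and 1 to 13 for the interaction.

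The median of clustered genes minus that of single genes was -0.48 for the drug in R6/2 and turned to 0.14 without R6/2 PLX3397 libraries 1 and 2. Between genotypes on the drug it was -0.67 and turned to 0.0050 without wild-type PLX3397 library 1, alone or with R6/2 vehicle library 1; leaving out 1 library gave -1.11 to 0.0050. Replicate numbers did not pair the libraries: deviations of the 18 same-numbered pairs correlated at -0.32 to 0.40. A replicate block gave 3 calls for the drug in wild type, 0 for the drug in R6/2 and 6 for the interaction, and moved no other count by over 1.5 times. A planned count test on recovered reads with another tool was not run, since the deposited unit is log2, and limma-voom took its place. Members with few reads, such as Pcdha1 and Pcdhb2, are limited by depth.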

Other observations

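Pcdhga11, Pcdhgb6 and Pcdhb16 departed from their neighbours in the clusters, and were picked after their values had been seen. Pcdhga11 was at 4.25, 4.75 and 4.0 log2 CPM in wild type on vehicle, 1.89, 0.94 and 3.91 in wild type on PLX3397, 1.47, 2.97 and 3.91 in R6/2 on vehicle and 1.95, 4.59 and 4.12 in R6/2 on PLX3397. The low and high libraries were found in 3 of the 4 groups, and no comparison called it by limma with Benjamini-Hochberg adjustment (adjusted p = 0.113 for the drug in wild type, with 0.0470 to 0.304 under the alternatives, the lowest without wild-type PLX3397 library 3). Among the 65 other members, Pcdhgb6 was the closest in pattern (Pearson's r = 0.926 over the 12 libraries, which share depth and composition) and Pcdhb16 came next (0.843). Pcdhgb6 was at 3.92, 4.56 and 3.90, then 3.18, 1.54 and 3.55, then 1.59, 2.51 and 4.03, and 2.76, 4.52 and 3.81 in the same order. Pcdhga12, in the same cluster, ranged less, with group SDs of 0.26 to 1.31 against 0.38 to 1.52 for Pcdhga11.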
